A study of Homo sapiens with 6 samples.

Results

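Replication-dependent histone genes supply the bulk of the histones that package newly copied DNA, and the data described here are the promoter peaks of the protein-coding members of this family on chromosome 6. A gene was a member if it lay on chromosome 6 and its symbol was H2AC, H2BC, H3C, H4C or H1- followed by a number. The rule gave 55 genes of the 20166 protein-coding genes placed on GRCh37 and the same 55 of 19666 on GRCh38: 6 linker histone H1 genes, 12 H2A genes, 15 H2B genes, 10 H3 genes and 12 H4 genes. It used names and positions only, and no measured value.

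Per the labels the chromatin came from OCI-AML3, an established human acute myeloid leukemia line with a heterozygous NPM1 mutation that sends the protein to the cytoplasm (mtNPM1). Cells received by transfection either the control guide RNA, sgNeg, or sgNpm1A, a guide for CRISPR-Cas9 editing of mtNPM1, and per the labels were cultured for 3 days; the text of the study gives a longer time. Each of 4 peak lists, acetylated lysine 27 of histone H3 (H3K27Ac) or trimethylated lysine 4 (H3K4me3) in sgNeg or sgNpm1A cells, came from 1 library, so no difference between guides has a replicate check and none was tested. The labels name no single-cell clone, and the lists hold no measure of how many NPM1 alleles were edited. The 2 input samples were not analysed here.

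Histone messenger RNAs of this family are made in S phase, carry a stem-loop in place of a poly(A) tail, and are transcribed and processed at nuclear bodies that hold the coactivator NPAT. Their genes are short, mostly lack introns and sit in clusters, with H2A and H2B genes commonly arranged head to head around a shared promoter. H3K4me3 is a mark of active promoters, and H3K27Ac is one of active promoters and enhancers.

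With a largest gap of 200 kb between neighbouring gene starts, the members formed 4 subclusters. On GRCh37 the first, at chr6:25726790-25727005, held H2AC1 and H2BC1, a pair best known from the testis. The second ran over 267.9 kb, at chr6:26018015-26285866, with 32 members from H1-1 to H4C8. The third, of 5 members over 14.3 kb, was at chr6:27100574-27114885 and the fourth, of 16 members over 85.5 kb, at chr6:27775707-27861203. The H1 genes were in the second subcluster (5 genes) and the fourth (1 gene, H1-5).

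On each build 12 pairs of members with starts within 1 kb pointed away from each other, and 10 of the 12 were an H2A gene with an H2B gene. These pairs took in 23 of the 55 members. One pair differed between builds, H3C12/H2BC17 on GRCh37 and H3C4/H2BC7 on GRCh38, each resting on a gene record that starts at or near a neighbouring H2A gene. The records of H3C12 and H2BC6 also start at different places on the builds (H2BC6 at 26172287 on GRCh37 and 26183761 on GRCh38), so the marks of H3C4, H3C12 and H2BC6 were not read at the same place. On GRCh37 the H2A and H2B starts of a pair were 170 to 251 bp apart, with a median of 236.5 bp; the closest pairs were H2AC15/H2BC15, at 170 bp, and H2AC1/H2BC1, at 215 bp.

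The sequences below are shown because they lie at the members whose H3K4me3 peak ranked highest in sgNeg for each core histone class, among the 50 members with an entry in the RefSeq promoter table (GRCh38.p14). H2AC12, H3C11, H4C1, H4C3 and H3C12 had no entry. For H4, H4C5 was level with H4C12, which is not printed and whose 300-base entry holds TATAAA; the first by position was taken. Capitals mark the letters of a CCAAT box (CCAAT, or ATTGG on the other strand), a TATA box (TATAAA, or TTTATA), 7 letters of the octamer that OCT1 binds (TTTGCAT, or ATGCAAA) and the H1 box (AAACACA, or TGTGTTT). The first sequence holds the 245 bases between the starts of H2BC4, which is read to the left, and H2AC6, which is read to the right (chr6:26123927-26124171, plus strand). The others hold the 150 bases upstream of H3C10 (chr6:27809901-27810050) and of H4C5 (chr6:26204460-26204609), both on the plus strand.
H2BC4/H2AC6: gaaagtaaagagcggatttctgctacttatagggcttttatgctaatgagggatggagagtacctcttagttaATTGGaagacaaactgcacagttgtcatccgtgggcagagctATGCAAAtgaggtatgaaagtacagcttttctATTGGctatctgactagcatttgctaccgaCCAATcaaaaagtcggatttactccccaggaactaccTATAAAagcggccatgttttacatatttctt
H3C10: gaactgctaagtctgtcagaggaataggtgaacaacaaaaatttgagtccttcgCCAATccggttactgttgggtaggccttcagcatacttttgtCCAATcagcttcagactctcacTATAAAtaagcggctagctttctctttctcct
H4C5: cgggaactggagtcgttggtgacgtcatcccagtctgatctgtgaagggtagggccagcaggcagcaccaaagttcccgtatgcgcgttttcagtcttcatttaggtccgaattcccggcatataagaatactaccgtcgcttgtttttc

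The H2BC4/H2AC6 spacer held 3 CCAAT letters, 1 octamer and 1 TATAAA, whose first base was 31 bases before the H2AC6 start. H3C10 held 2 CCAAT letters and a TATAAA 32 bases before its start. None of the 4 motifs was in the 150 bases of H4C5, which says only that those letters are not in this window.

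The motifs differed by class over the 300 bases of each promoter entry (250 before and 50 after the start, both strands, matches that overlap another motif kept). CCAAT was in 6 of 6 H1, 11 of 11 H2A, 15 of 15 H2B and 8 of 8 H3 promoters, but in 3 of 10 H4 promoters, beside 42.1% of 15843 coding genes of the table. The octamer letters were in 9 of 11 H2A and 12 of 15 H2B promoters, 1 of 8 H3 promoters and none of the 6 H1 or 10 H4 promoters (all genes, 5.04%). The H3 promoter was that of H3C4, which has an entry at the H2AC7 start that holds the octamer, so it is not a separate H3 case. The H1 box was in 6 of 6 H1 promoters and in no other member (all genes, 5.83%). TATAAA was in 34 of the 50 (all genes, 12.4%). On GRCh38 the starts of head-to-head H2A and H2B genes were 194 to 248 bp apart, so both entries hold the spacer. A motif in the spacer is counted for both genes, as is the TATAAA of H2BC4/H2AC6. The H2A and H2B counts are thus not counts of separate promoters. The plot of motif shares gives each class beside all coding promoters. Base composition was the other feature that set the members apart from most promoters. Their 300-base entries had a median GC content of 42.3%, against 62.3% over all genes, and on GRCh37 the 2 kb around their starts had 48.1% (range 38.5 to 52.9%), against 54.97%.

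**Figure D1:**
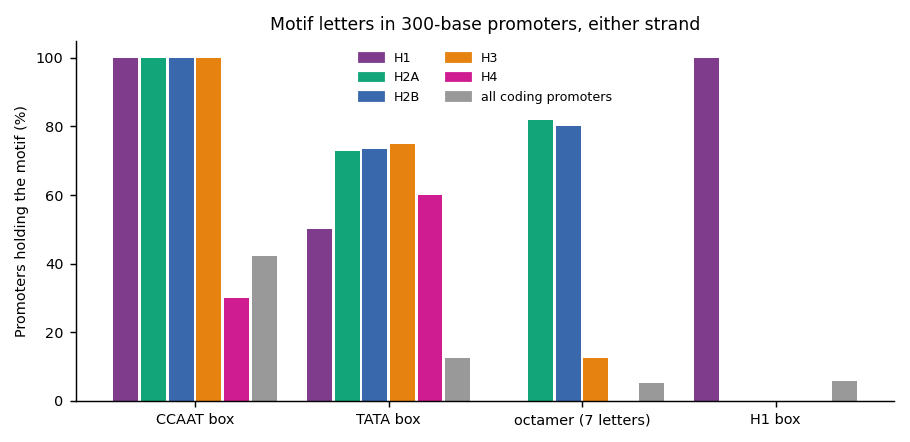
Share of promoter entries (%, y axis) that hold the letters of each motif on either strand, for the members of each histone class and for all 15843 coding genes of the table. The octamer bars stand in the H2A and H2B classes, the H1 box bar in H1, and the CCAAT bar of H4 is the lowest of the 5 classes.

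A promoter peak was a peak within 1 kb of the gene start. Where a gene had several, the one of highest fold enrichment was kept, and its percentile is the share of peaks of the same list at or below its fold. Genes without a peak were given a percentile of 0. The lists held 327715 (sgNeg) and 317059 (sgNpm1A) H3K27Ac peaks and 353628 and 106641 H3K4me3 peaks. The share of all coding genes with a promoter peak differed far more than the H3K27Ac list sizes, at 69.8% in sgNeg and 32.3% in sgNpm1A for H3K27Ac and 64.7% and 7.66% for H3K4me3, so each count of members is set beside these. Of 7 myeloid marker genes fixed as a check of the line (such as SPI1, CEBPA and MPO), 7 had an H3K27Ac and 4 an H3K4me3 peak in sgNeg, and of 6 genes of other lineages 2 and 1 did. In sgNpm1A the myeloid counts were 3 of 7 (H3K27Ac) and 0 of 7 (H3K4me3), and those of the other lineages 2 of 6 and 1 of 6. With a promoter peak at 7.66% of all coding genes in the sgNpm1A H3K4me3 list, 0 of 7 is near that share. It says nothing about the markers or the members. H3K27Ac and H3K4me3 lists were named with different tags, and the sources used here do not say whether a tag marks a run or a cell line; the study also used OCI-AML2, so the line behind the H3K27Ac lists rests on the labels alone.

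H3K27Ac marked nearly the whole family in sgNeg cells. Of the 55 members, 50 had a promoter peak (90.9%, Wilson 95% interval 80.4 to 96.1%, counting error only), against 69.8% of all coding genes. The counts were 6 of 6 for H1, 11 of 12 for H2A, 13 of 15 for H2B, 8 of 10 for H3 and 12 of 12 for H4, and the Wilson intervals of the 5 classes overlapped. The peaks were also high in the list: 45 members were in the top 5% by fold, as were 40.2% of all coding genes, and 18 were in the top 1% (13.5% of all). The members with a peak had a median fold of 5.46 and a median percentile of 98.7, and all coding genes with a peak had 4.09 and 96.5.

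H4C8, which encodes H4, led the family in sgNeg H3K27Ac with a fold of 7.28 (percentile 99.7, place 1010 in the list). The head-to-head pair H2BC4 and H2AC6, whose shared promoter is printed above, was next, under a single peak with a fold of 6.63 (percentile 99.5). H1-2, a linker histone gene, followed at 6.27 (percentile 99.3). These were modest steps in fold, since 45 of the members lay between percentiles 96.4 and 99.7.

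The 5 members without a peak and the weak ones came from several classes. H2AC1 and H2BC1, the testis pair of the first subcluster, had no peak in either mark in sgNeg, and their nearest H3K27Ac peaks were 7584 and 7799 bp away. H3C6, H3C8 and H2BC10, inside the second subcluster, also had no sgNeg peak in either mark, with the nearest H3K27Ac peak 3523, 6081 and 4563 bp off; H3C8 and H2BC10 are neighbours. H1-1, at the edge of the same subcluster, had a weak peak with a fold of 2.64 (percentile 26.0), and H2BC3 and H3C3 shared one of 2.70 (percentile 37.1). H4C7 was the remaining weak member, at 2.90 (percentile 65.9). H1-6, the third member known from the testis, had a sgNeg H3K27Ac peak with a fold of 3.65 (percentile 94.4), reaching 99 bp upstream of its start and 1781 bp downstream, and no H3K4me3 peak.

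**Figure D2:**
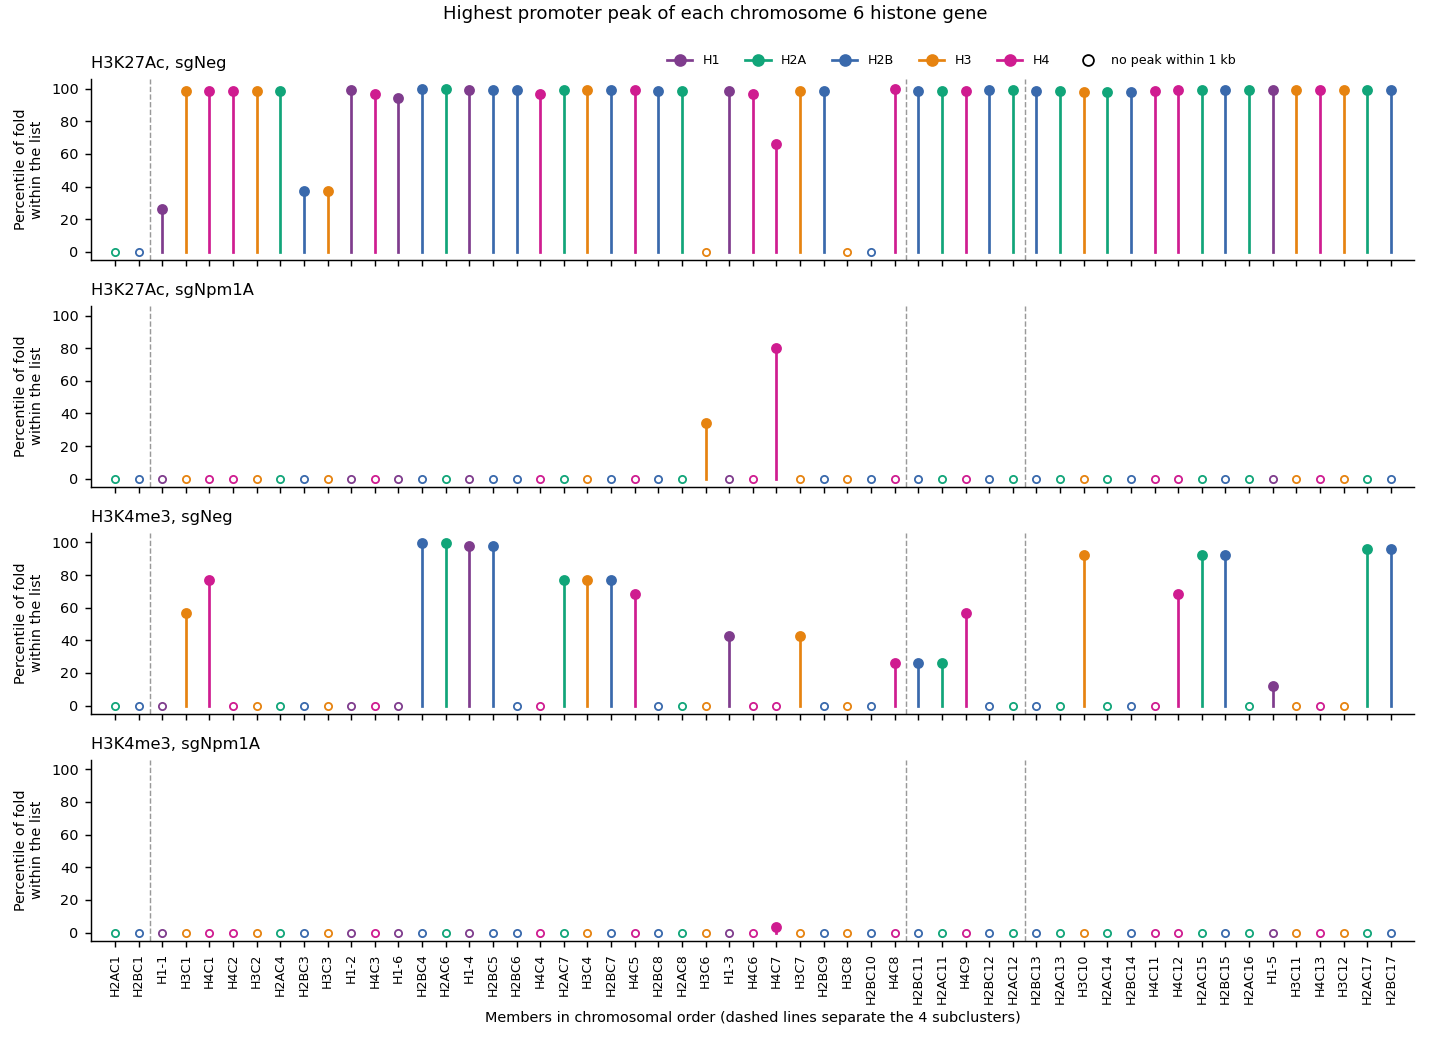
Percentile of fold (y axis, within each list) of the highest promoter peak of each member, in chromosomal order, for the 4 lists; open circles at 0 are members with no peak within 1 kb. The sgNeg H3K27Ac row is filled for 50 of 55 members, the sgNeg H3K4me3 row for 23, and the sgNpm1A rows hold 2 and 1.

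The width of the H3K27Ac peaks set the members apart more than their fold, which in these lists is a mean over each region and not a summit height. The median width over the 50 members was 7486 bp, near the top of the list (median width percentile 99.5), while all coding genes with a promoter peak had a median of 1556 bp. The 50 members fell under 25 distinct peaks, so members of a block share a value, and with each of these peaks counted once the median was 3922 bp. The widest, of 15143 bp (place 261 of all peaks by width), covered the starts of 5 members at once: H3C1, H4C1, H4C2, H3C2 and H2AC4. Others of more than 12 kb lay over H3C4, H2AC7, H2BC7 and H4C5 (13296 bp), over H2BC11, H2AC11 and H4C9 (13744 bp), over H2AC16, H1-5, H3C11 and H4C13 (12140 bp) and over H3C10, H2AC14 and H2BC14 (12113 bp). H4C8, the member of highest fold, had a peak of 2177 bp. Mean fold and width thus did not rank the members alike.

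**Figure D3:**
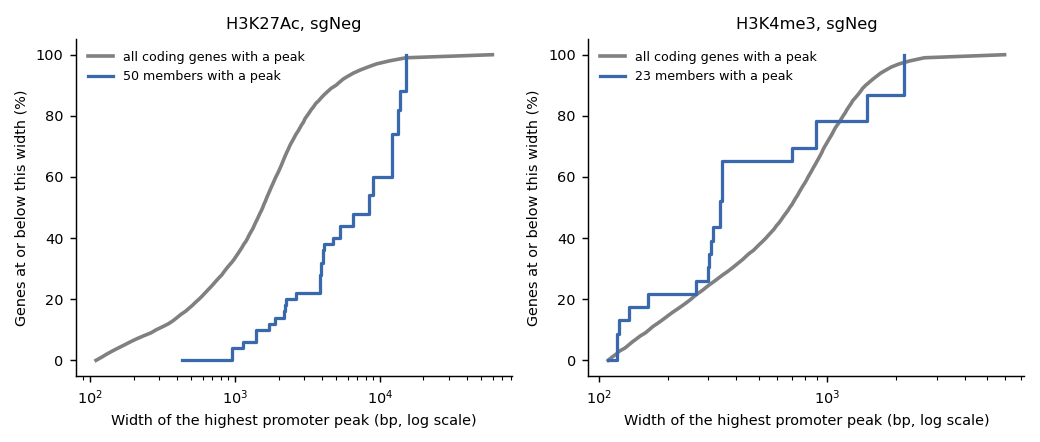
Cumulative share of genes (y axis, %) by the width of their highest promoter peak (x axis, bp, log scale) in sgNeg, for the members with a peak and for all coding genes with one. The H3K27Ac curve of the members lies to the right of that of all genes (medians 7486 and 1556 bp), and the H3K4me3 curve crosses it (medians 338 and 684 bp).

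Of the bases between the first and last starts of the subclusters (367.9 kb in all), 42.8% lay under sgNeg H3K27Ac peaks, against 5.45% of chromosome 6. The share was 34.9% in the second subcluster, 89.4% in the third and 60.1% in the fourth. In the 12 divergent pairs of GRCh37, 1 peak served both starts in 11, and in 9 of these it ran across both starts and the spacer between them; H2AC1/H2BC1 was the pair without a peak.

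H3K4me3 marked fewer of the members in sgNeg cells. Of the 55 members 23 had a promoter peak (41.8%, Wilson 95% interval 29.7 to 54.97%), below the 64.7% of all coding genes, and 6 were in the top 5% of the list, where 39.6% of all coding genes were. The classes did not separate: 3 of 6 H1, 5 of 12 H2A, 6 of 15 H2B, 4 of 10 H3 and 5 of 12 H4 genes had a peak. The GC content of these promoters is low. Its median was 42.8% in the 22 members with an entry and a sgNeg H3K4me3 peak, and 42.2% in the 28 with an entry and no such peak. Among 1101 other coding genes whose 300-base entry had a GC content within the members' middle range (40.0 to 46.9%), 30.2% had a sgNeg H3K4me3 peak, while for H3K27Ac 64.6% of 2392 genes within the members' middle range of the 2 kb GC content did. The part of base composition in the members' counts was not tested.

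The H2BC4/H2AC6 pair carried the highest H3K4me3 peak of the family, with a fold of 9.57 (percentile 99.4), a width of 2151 bp and 45 fragments at its summit (exact Poisson 95% interval 32.8 to 60.2, counting error only). H1-4, a linker histone gene, shared a peak with H2BC5, with a fold of 6.45 (percentile 97.8), a width of 887 bp and 30 fragments (20.2 to 42.8). H2AC17/H2BC17, the head-to-head pair at the end of the fourth subcluster, followed with a fold of 5.41 (percentile 96.2), a width of 1482 bp and 25 fragments (16.2 to 36.9). The intervals of neighbours in this order overlap, so their order is not fixed by the counts. H3C10 (698 bp wide) and the pair H2AC15/H2BC15 (338 bp) followed at a fold of 4.58 and 21 fragments each. The other members with a peak had folds between 2.70 (H1-5) and 3.74, or 12 to 17 fragments, a few above the list's lowest count of 11. H3C4 takes its value from the record it shares with H2AC7, since the GRCh38 table gives both genes the same start.

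Members with the strongest H3K27Ac did not all have H3K4me3 peaks of rank. H4C8, first in H3K27Ac, had an H3K4me3 fold of 2.91 (percentile 26.4) from 13 fragments, 961 bp past its start, and H1-2, with an H3K27Ac percentile of 99.3, had no H3K4me3 peak within 1 kb. The H2BC4/H2AC6 pair was near the top in both marks. Among the members with H3K4me3 peaks, those with 2 or more genes under a single peak were the H2BC4/H2AC6, H1-4/H2BC5, H2AC7/H3C4/H2BC7, H2BC11/H2AC11, H2AC15/H2BC15 and H2AC17/H2BC17 groups.

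No H3K4me3 peak covered a member's start. Of the 23 members with a sgNeg peak, 17 had it wholly downstream of the start, with its near edge 108 to 961 bp away (median 344 bp), and 6 had it wholly upstream. Each of the latter shares its peak with a neighbour for which the peak is downstream: H2BC4, H2BC5, H2BC7, H2BC11, H2AC15 and H2AC17. So the 16 distinct peaks kept all lay downstream of the start of at least 1 member. In each divergent pair with a kept peak common to both genes, that peak lay on 1 side of the shared spacer. Only the highest peak of each gene enters these counts. H2AC15 and H2AC17 also had a further peak downstream of their starts, 356 and 379 bp away, on the other side of the spacer. H4C9 had a further peak 46 bp from its start. Over all coding genes with a sgNeg H3K4me3 peak, 14.4% had it over the start, 66.7% wholly downstream with a median gap of 123 bp, and 19.0% wholly upstream. The H3K27Ac peaks were placed otherwise, with 43 of 50 members' peaks over the start (68.4% of all coding genes with one). The marks sit on different builds and were called in different ways, broad for H3K27Ac and narrow for H3K4me3, so positions were compared with the gene starts and not with each other.

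**Figure D4:**
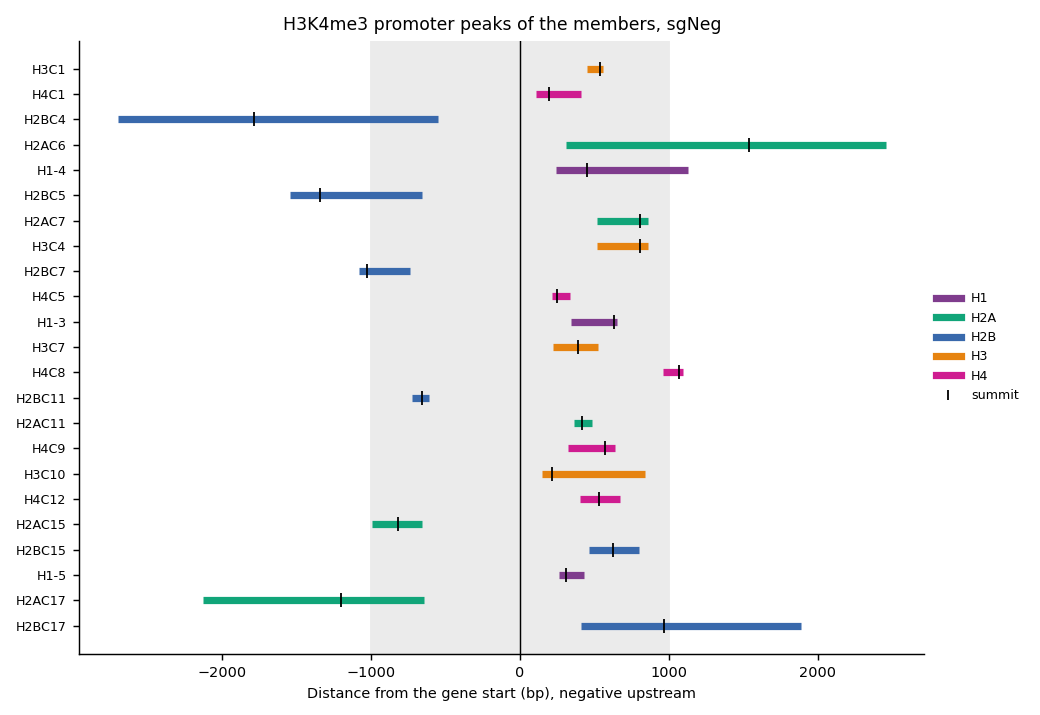
Extent of the sgNeg H3K4me3 promoter peak of each of the 23 members that had one (bars), with its summit (ticks), as the distance from the gene start in bp, negative upstream; the grey band is the 1 kb window on either side. No bar crosses the start, 17 bars lie downstream and 6 upstream.

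In sgNpm1A cells almost no member had a peak. For H3K27Ac 2 of 55 did (3.64%, Wilson 95% interval 1.00 to 12.3%), against 32.3% of all coding genes. Of the 50 members with a sgNeg peak, 1 also had a sgNpm1A peak (2.0%, 0.354 to 10.5%), beside 38.2% of all coding genes with a sgNeg peak and 25.8% of the other coding genes of chromosome 6 with one. A peak in both lists was found at 1 member (26.7% of all coding genes), in the sgNeg list but not the sgNpm1A list at 49 (43.1%), and the other way round at 1 (5.64%). The median change of percentile from sgNeg to sgNpm1A was -98.65 over the members and -34.76 over all coding genes. It was -98.6 to -98.8 in each of the 5 classes. Nearly all members had a sgNpm1A percentile of 0, so these values repeat the sgNeg medians with the sign reversed. Members of different classes also share peaks, so the likeness of the classes adds nothing about the guide. In bulk chromatin, fewer cells with a mark and less mark per cell cannot be told apart. A difference between the libraries themselves cannot be set apart either, since each list came from 1 library. The top 5% of the sgNeg list held promoter peaks for 40.2% of all coding genes, that of the sgNpm1A list for 1.72%. For the 20000 strongest peaks of each list these shares were 42.6% and 2.24%. How well the sgNpm1A library was enriched was not tested.

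The 2 members with a sgNpm1A H3K27Ac peak were among the weakest or empty in sgNeg. H4C7 had a fold of 3.25 (percentile 80.3) from a peak of 229 bp that began 232 bp past its start; its gain of 14.4 percentile points rests on a smaller peak than the 1139 bp of sgNeg. H3C6, with no sgNeg peak, had a fold of 2.83 (percentile 34.4) at the edge of the window, 963 bp past the start, and this was the largest gain (34.4 points). H4C8 had the largest fall, from 99.7 to 0, which repeats its first rank in sgNeg, since nearly all members had 0 in sgNpm1A. Its nearest sgNpm1A peak was 25682 bp away. At the H2AC6 start it was 10905 bp away. Over the 55 members the median distance from the start to the nearest sgNpm1A H3K27Ac peak was 12.5 kb, where the sgNeg list had 44 of 55 starts under a peak and a median of 0; over all coding genes the medians were 2282 bp in sgNpm1A and 22.5 bp in sgNeg. Peaks covered 0.922% of the subclusters in sgNpm1A, against 3.94% of chromosome 6, and 12 peaks lay there where sgNeg had 74, although the chromosome as a whole held 14208 and 15259.

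H3K4me3 in sgNpm1A was found at 1 member of 55 (1.82%, Wilson 95% interval 0.322 to 9.61%), again H4C7, and at 7.66% of all coding genes. Its peak was low, with a fold of 2.80 (percentile 3.33), 258 bp and 10 fragments (exact Poisson 95% interval 4.80 to 18.4), 122 to 379 bp past the start. A peak in the sgNeg list but not the sgNpm1A list was found at 23 members (58.7% of all coding genes), the reverse at 1 (1.69%) and a peak in both at 0 (5.97%). None of the 23 members with a sgNeg peak had a sgNpm1A peak, which allows a share of up to 14.3% by the Wilson interval, beside 9.23% of all coding genes with a sgNeg peak. The median change of percentile was 0 over the members, most of which had no peak in either list, and -68.38 over all coding genes. The 9.23% lies within that interval, while for H3K27Ac the 38.2% of all coding genes lies above the members' interval. Because members share peaks, they are not independent of each other and these intervals are too narrow. H2BC4 and H2AC6 had the largest fall, from a percentile of 99.4 to 0, and H4C7 the one gain, of 3.33 points. The fall repeats their sgNeg rank, since no member with a sgNeg peak had a sgNpm1A peak. The sgNpm1A H3K4me3 list is the shortest of the 4, and 92.7% of members but 59.1% of all coding genes were more than 10 kb from its nearest peak.

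Related genes outside the clusters give the frame for these counts. Of the core histone genes on other chromosomes, 9 of 13 had a sgNeg H3K27Ac peak and 8 of 14 an H3K4me3 peak; in sgNpm1A 3 of 13 and 0 of 14 did. Replacement and variant histone genes, most of which are also expressed outside S phase, had a sgNeg peak in 10 of 12 for each mark and in 0 of 12 for each mark in sgNpm1A. Genes for histone gene transcription and messenger RNA processing had one in 18 of 18 for each mark in sgNeg, and in 5 of 18 (H3K27Ac) and 0 of 18 (H3K4me3) in sgNpm1A. In the H3K4me3 list these single genes stood well above the members: H3-3A and H3-3B, which encode the replacement histone H3.3, had folds of 11.2 and 12.3, and SLBP, the stem-loop binding protein, had 12.7, where the highest member had 9.57. NPAT had an H3K4me3 fold of 5.41, equal to that of H2AC17/H2BC17, and H2AZ1, the H2A.Z gene, 7.49. In H3K27Ac the folds of NPAT (5.58), SLBP (5.97), H2AZ1 (7.45), H3-3B (7.84) and H3-3A (11.5) reached from the members' middle to above their highest. None of these 5 genes had a sgNpm1A promoter peak in either mark. Of all coding genes with a sgNeg peak, 38.2% (H3K27Ac) and 9.23% (H3K4me3) also had a sgNpm1A peak. Over all coding genes the sgNpm1A shares were 32.3% and 7.66%. The H3K4me3 counts of 0 in these gene lists are near the latter share and say nothing about the lists.

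**Figure D5:**
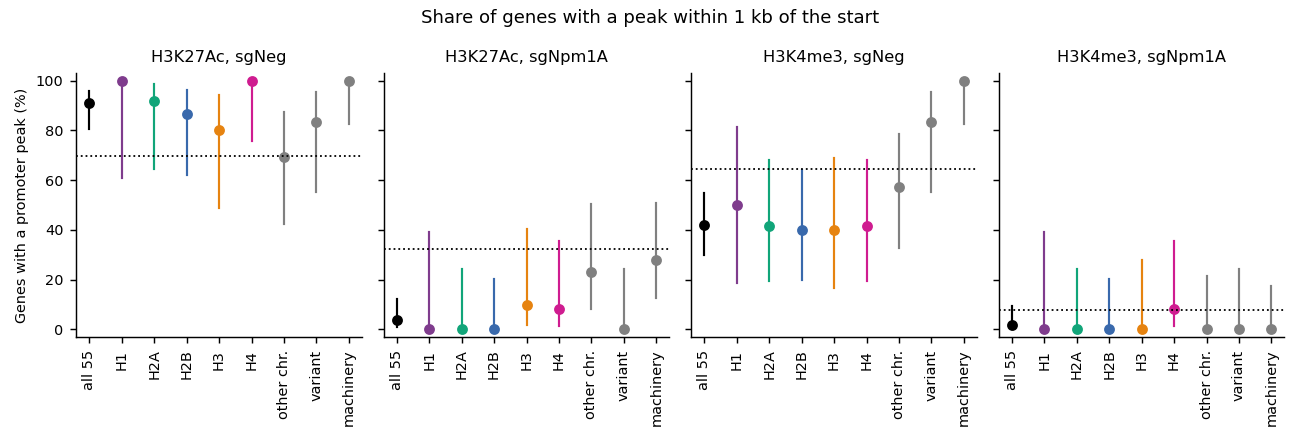
Share of genes with a peak within 1 kb of the start (y axis, %) in each list, for all 55 members, each class, the histone genes on other chromosomes, variant histone genes and genes of histone gene transcription and processing (machinery); bars are Wilson 95% intervals and the dotted line is all coding genes. Members lie above the line in sgNeg H3K27Ac (90.9 against 69.8%) and below it in sgNeg H3K4me3 (41.8 against 64.7%) and sgNpm1A H3K27Ac (3.64 against 32.3%).

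Members resemble each other in sequence, which bears on where short reads can be placed. In the 2 kb around a GRCh37 start, a median of 98.4% of the 50-base words occurred once in the genome, and 47 of 55 members were above 90%. The lowest shares were at H4C11 (76.4%), H4C12 (77.7%) and the pair H2AC13/H2BC13 (80.8% each), and the 5 members without a sgNeg peak in either mark had 97.0 to 100%. H4C11, H4C12, H2AC13 and H2BC13 each had a sgNeg H3K27Ac peak, at percentiles of 98.3, 99.3, 98.6 and 98.6. None of these peaks covered the gene's start, and H4C12 alone of these genes had a sgNeg H3K4me3 peak. H2AC12, H2BC12, H2AC14 and H2BC14, the others below 90% (82.0 to 86.3%), had a sgNeg H3K27Ac peak and no H3K4me3 peak. Whether read placement had a part in these calls was not tested. H1 genes had 100% in all 6 cases.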

How the data were processed

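Chromatin of OCI-AML3 cells was precipitated for H3K27Ac or H3K4me3 and tagmented with Tn5 (ChIPmentation). The submitters' processing notes name bcl2fastq 2.17, Trimmomatic 0.33, Bowtie 1.1.2, MACS2 2.1.0, deepTools and hg38. The authors called peaks in each library separately; the threshold and the use of the inputs are not given in the sources used here. Fold enrichment as deposited is the ratio of observed to expected pileup, read at the summit in H3K4me3 lists and as a mean over each region in H3K27Ac lists. The same rows hold the deposited −log10 q-value and −log10 p-value, and the deposited score was not used. H3K4me3 folds fit (pileup + 1)/(background + 1) with 1 background per list (3.81 fragments in sgNeg, 2.93 in sgNpm1A), which gave whole pileups (within 0.05) for 100% of peaks. They hold no local or input correction, so regions present in more copies reach the limit more easily.

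H3K27Ac peaks on chromosome 1 end at 249218478 and 249212461, past its end in hg38, and H3K4me3 peaks on chromosome 17 at 83201880 and 83201881, past its end in hg19. H3K27Ac lists were therefore read on GRCh37 (GENCODE 44 lifted) and H3K4me3 lists on GRCh38 (RefSeq gene table); nothing was converted. On GRCh37, 51 members were found by symbol, H4C2 by its older symbol and H2BC7, H2BC8 and H4C6 by a single exact match of the RefSeq promoter sequence. The lists give no library totals, so depth is known only as the fragments at H3K4me3 summits.

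Groups came from the sample titles. Members and gene lists were chosen with earlier results of these data known. Named genes were, by rule, the 3 members of highest percentile and the widest peak per list, members with a sgNpm1A H3K4me3 peak, members with no sgNeg peak in either mark, the largest gain and fall per mark, the closest divergent pairs, the testis genes H1-6, H2AC1 and H2BC1, and 5 genes outside the clusters; further members are named where a count or position needs them and were chosen after their values were seen. Intervals are Wilson or exact Poisson at 95%. Functions were tested on simulated data. Python 3.11.15, numpy 2.4.6, pandas 2.3.3 and scipy 1.17.1 were used. Alternatives were windows of 500 bp, 2 kb or the start itself, any transcript start, q-value limits of 0.01 and 1e-05, the 20000 peaks of lowest p-value, ranking by p-value, other subcluster limits and, added after seeing the data, other member sets and each peak counted once.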

Additional observations from a re-analysis of the deposited data

How the results depend on the processing

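Of 158 values under alternative settings, 126 stayed close to the value reported and 32 moved. Counts were called close within 1.5 times and medians within the binomial interval of the median. Covered shares were called close within a Wilson interval over bins of 1 kb. A change of direction could be called only for the H3K27Ac change of percentile between guides, and none was. With 1 library per group no replicate could be left out. No paired analysis was possible because each group has 1 library. No rows overlapped, so the run without merging repeated the reported values, and it is counted among the 126. The median percentiles and their changes between guides moved under no alternative run. This was largely fixed in advance, since a missing peak counts as 0 and the thresholds keep percentiles of the full list. Within 2 kb the sgNeg H3K4me3 median went from 0 to 11.8 and its change to -11.8, inside wide intervals (0 to 26.4 for the median). Members with a sgNeg H3K27Ac peak stayed at 42 (q-value under 1e-05) or more, where 31.8% of all coding genes had one.

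The sgNpm1A H3K27Ac count of 2 was 1 within 500 bp or at a q-value under 0.01, 4 within 2 kb, and 0 with the start covered, at a q-value under 1e-05 or in the 20000 strongest peaks. Over all coding genes the shares were 20.5% within 500 bp, 12.2% at a q-value under 0.01, 47.1% within 2 kb, 7.56% with the start covered, 0.268% at a q-value under 1e-05 and 2.24% in the 20000 strongest peaks, so that a count of 0 at the last 2 settings says nothing about the members. Members with H3K27Ac in both lists (1 reported) were 3 within 2 kb and 0 with the start covered or under each of the 3 peak thresholds. The H3K4me3 count in both (0 reported) was 1 within 2 kb, where 13.0% of all coding genes had a sgNpm1A peak. The share of all coding genes in both lists was not computed at these settings. It cannot exceed the sgNpm1A share, so a count of 0 at a q-value under 1e-05 or in the 20000 strongest peaks says nothing about the members. The sgNpm1A H3K4me3 count of 1 became 0 with the start covered (1.75% of all coding genes) and at a q-value under 0.01 (7.36%), under 1e-05 (1.27%) and in the 20000 strongest peaks (1.70%). The sgNeg H3K4me3 count of 23 was 0 with the start covered (11.4% of all coding genes), 9 at a q-value under 1e-05 (50.1%) and 6 in the 20000 strongest peaks (40.8%), with median widths of 887 and 1482 bp at the last 2 settings.

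The median sgNpm1A H3K27Ac width (566.5 bp) was 206 bp within 2 kb, and the sgNeg one 3922 bp with each peak counted once. The share of the subclusters under sgNeg H3K27Ac peaks (42.8%) was 36.3, 32.0 and 35.6% at q-values under 0.01 and 1e-05 and in the 20000 strongest peaks, and that under sgNpm1A peaks (0.922%) was 0.119, 0 and 0%. For H3K4me3 it was 1.25% (sgNeg, 20000 strongest peaks) and 0% (sgNpm1A, q-value under 1e-05 and 20000 strongest peaks). The thresholds leave fewer peaks in a list by construction; the cause of the other shifts was not tested.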
